A study of Mus musculus with 61 samples.

Results

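The genes described here are the 7 mouse mu-class glutathione transferases, Gstm1 to Gstm7, taken by gene symbol from a liver count table of 18754 genes. All 7 had enough reads to enter the tests, which covered 16165 genes. The livers came from 8 inbred strains, the founders of the Diversity Outbred stock, with 8 libraries each of strain-129 (a bare number in the labels), NOD, NZO, PWK and WSB, 7 each of B6 and Cast and 6 of AJ. Every group was kept on the same high-fat, high-sugar diet, labelled as 45% fat, so strain is the factor compared and no group on another diet enters. The labels give neither sex nor age, and they do not say in words that each library is a separate mouse, so the p-values measure the spread between these libraries.

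Glutathione transferases join the tripeptide glutathione to reactive, electrophilic molecules, which makes them soluble and ready for export from the cell. The mu class is abundant in the liver cytosol, where it handles epoxides, quinones and products of lipid peroxidation. Several of its genes are known to be induced through the electrophile sensor NRF2 and through the xenobiotic receptors CAR and PXR.

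The 7 genes lie side by side on chromosome 3, from position 107895821 to 108044894 of the GRCm38 build, a span of 149.1 kb. In the order of the chromosome they are Gstm5 (107895821 to 107898686), Gstm7 (107926334 to 107931817), Gstm6 (107938847 to 107943749), Gstm3 (107963696 to 107969283), Gstm2 (107981702 to 107986453), Gstm1 (108012255 to 108017973) and Gstm4 (108040408 to 108044894). Gstm5 is on the plus strand and the others are on the minus strand. Their identifiers are ENSMUSG00000058135 (Gstm1), ENSMUSG00000040562 (Gstm2), ENSMUSG00000004038 (Gstm3), ENSMUSG00000027890 (Gstm4), ENSMUSG00000004032 (Gstm5), ENSMUSG00000068762 (Gstm6) and ENSMUSG00000004035 (Gstm7).

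The sequences matter here because near-identical stretches can pass reads from 1 gene to another. In the principal GENCODE M21 transcripts, coding sequences agreed at between 69.27% of aligned bases (Gstm3 and Gstm5) and 89.45% (Gstm1 and Gstm3). The coding window of 60 bases in which the family was most alike, with a mean identity over pairs of 90.6%, spans coding positions 203 to 262 (212 to 271 in Gstm5). It is shown for every gene, with capitals at each base that differs from Gstm1.
Gstm1: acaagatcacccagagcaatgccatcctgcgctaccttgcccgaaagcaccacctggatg
Gstm2: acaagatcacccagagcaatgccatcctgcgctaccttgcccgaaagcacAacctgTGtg
Gstm3: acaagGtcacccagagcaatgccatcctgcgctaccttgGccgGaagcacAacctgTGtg
Gstm4: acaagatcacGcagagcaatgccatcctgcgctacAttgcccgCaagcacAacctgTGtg
Gstm5: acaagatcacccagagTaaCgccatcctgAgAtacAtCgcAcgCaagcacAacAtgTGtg
Gstm6: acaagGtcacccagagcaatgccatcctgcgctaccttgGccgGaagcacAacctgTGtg
Gstm7: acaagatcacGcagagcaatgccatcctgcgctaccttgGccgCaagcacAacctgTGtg
Gstm3 and Gstm6 are the same at every base of this window. The window of 60 bases in which the family was least alike, at a mean identity of 67.1%, is the end of the coding sequence, positions 595 to 654 (604 to 663 in Gstm5), again with capitals at differences from Gstm1.
Gstm1: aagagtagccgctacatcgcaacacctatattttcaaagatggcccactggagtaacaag
Gstm2: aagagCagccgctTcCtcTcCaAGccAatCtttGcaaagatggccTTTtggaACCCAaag
Gstm3: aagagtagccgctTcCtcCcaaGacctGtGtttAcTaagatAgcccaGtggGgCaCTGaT
Gstm4: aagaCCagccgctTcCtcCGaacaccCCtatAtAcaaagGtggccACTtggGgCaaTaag
Gstm5: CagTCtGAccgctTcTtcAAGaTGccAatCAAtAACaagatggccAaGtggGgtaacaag
Gstm6: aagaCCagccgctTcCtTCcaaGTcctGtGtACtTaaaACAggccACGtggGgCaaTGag
Gstm7: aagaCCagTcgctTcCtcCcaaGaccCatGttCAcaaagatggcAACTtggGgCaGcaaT
Gstm1 and Gstm3 share an uninterrupted identical run of 112 coding bases, at positions 389 to 500 of both, which a short read could not place in either gene. Gstm3 and Gstm6 share a run of 125 coding bases at positions 169 to 293 of both. Both runs are printed in full because they are the longest identical coding runs among the 7 genes.
Gstm1 and Gstm3: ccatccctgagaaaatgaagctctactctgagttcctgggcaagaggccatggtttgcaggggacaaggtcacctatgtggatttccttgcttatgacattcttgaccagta
Gstm3 and Gstm6: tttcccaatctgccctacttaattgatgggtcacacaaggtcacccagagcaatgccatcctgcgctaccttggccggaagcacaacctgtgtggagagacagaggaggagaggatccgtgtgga

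Counted over whole annotated transcripts, 21.58% of the distinct 75-base stretches of Gstm3 also occurred in another gene (Gm8834, Gstm2-ps1, Gstm1 or Gstm6). The share was 11.65% for Gstm1, 7.47% for Gstm5 (all with the opposite-strand gene 4933431E20Rik), 2.59% for Gstm6 and 1.85% for Gstm2, and no stretch of Gstm4 or Gstm7 was shared. An estimator that divides a read among genes leaves counts that are not whole, and the deposited estimated counts were not whole in 57 of 60 libraries for Gstm1, 56 for Gstm3, 38 for Gstm5 and 31 for Gstm6. They were whole in every library for Gstm2, Gstm4 and Gstm7, so these 3 genes showed no such fraction. Values of Gstm1, Gstm3, Gstm5 and Gstm6 are uncertain to that extent. Whether reads of the other strains were aligned to GRCm38, which is a B6 sequence, or to genomes of their own is not given in the sources used here, so a strain's level and its sequence differences from B6 cannot be told apart.

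Library totals ran from 19.98 to 69.17 M estimated reads. Levels below are CPM (counts-per-million) scaled by TMM, a correction for library composition, and a level ± an error is a mean ± SD over the libraries of a strain. The 6 hepatocyte markers summed to at least 23380 CPM in every library, and none was at 0 in any strain. A few libraries stood apart and are named with the results they touch. NOD 1 and NOD 2 had far more Gstm3 than NOD 3 to NOD 8. NZO 8 had the lowest summed hepatocyte markers (23380 CPM) and the highest summed Kupffer cell markers (705.8 CPM) of the series. PWK 9 and Cast 1 lay at the edge of their strains for several of the 7 genes. In bulk liver, fewer cells of a type and less RNA per cell cannot be told apart.

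All 7 genes differed among the 8 strains (edgeR quasi-likelihood test, adjusted p from 3.12e-20 to 2.23e-08), as did 89.8% of all genes tested, so that count does not set the family apart. Of the 7 genes, Gstm2 and Gstm3 had the largest share of their own variance between strains. Strain accounted for 90.5% of the variance of log2 CPM for Gstm2 and 89.4% for Gstm3, above 97.7% and 97.2% of all genes tested, beside a median of 49.3% over all genes. The share was 74.5% for Gstm7, 69.5% for Gstm6, 68.2% for Gstm5, 58.8% for Gstm1 and 51.1% for Gstm4.

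Each strain was then set against the log-scale mean of the other 7, and 35 of the 56 values passed the adjusted threshold of 0.05. The 8 comparisons share their libraries and are not independent of each other. In NOD, 5 genes were higher and 0 lower, where 16.7% of all genes were called higher and 11.6% lower. No gene was lower in NOD at an unadjusted p under 0.05, nor with DESeq2 or limma. In PWK, 2 were higher and 4 lower (22.5% and 22.7% of all genes), and in NZO 2 were higher and 3 lower (26.7% and 19.5%). In Cast, 1 was higher and 3 lower (30.8% and 28.8%). In B6, 4 were higher and 1 lower (19.4% and 14.7%), in strain-129 3 were higher and 1 lower (13.7% and 10.9%), and in AJ 3 were higher and 0 lower (13.1% and 11%). AJ likewise had no lower gene at an unadjusted p under 0.05, with DESeq2 or with limma. With only 7 genes, a count of 0 lies near the shares of all genes called lower in NOD and AJ. WSB had 1 higher and 2 lower (22.6% and 22.4%). The median log2 fold change of the 7 genes was 0.97 in NOD and -0.77 in PWK, while that of all genes lay between -0.02 and 0.02 in every strain. The family did not move as a block: in NZO and PWK some members were called higher and others lower.

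**Figure D1:**
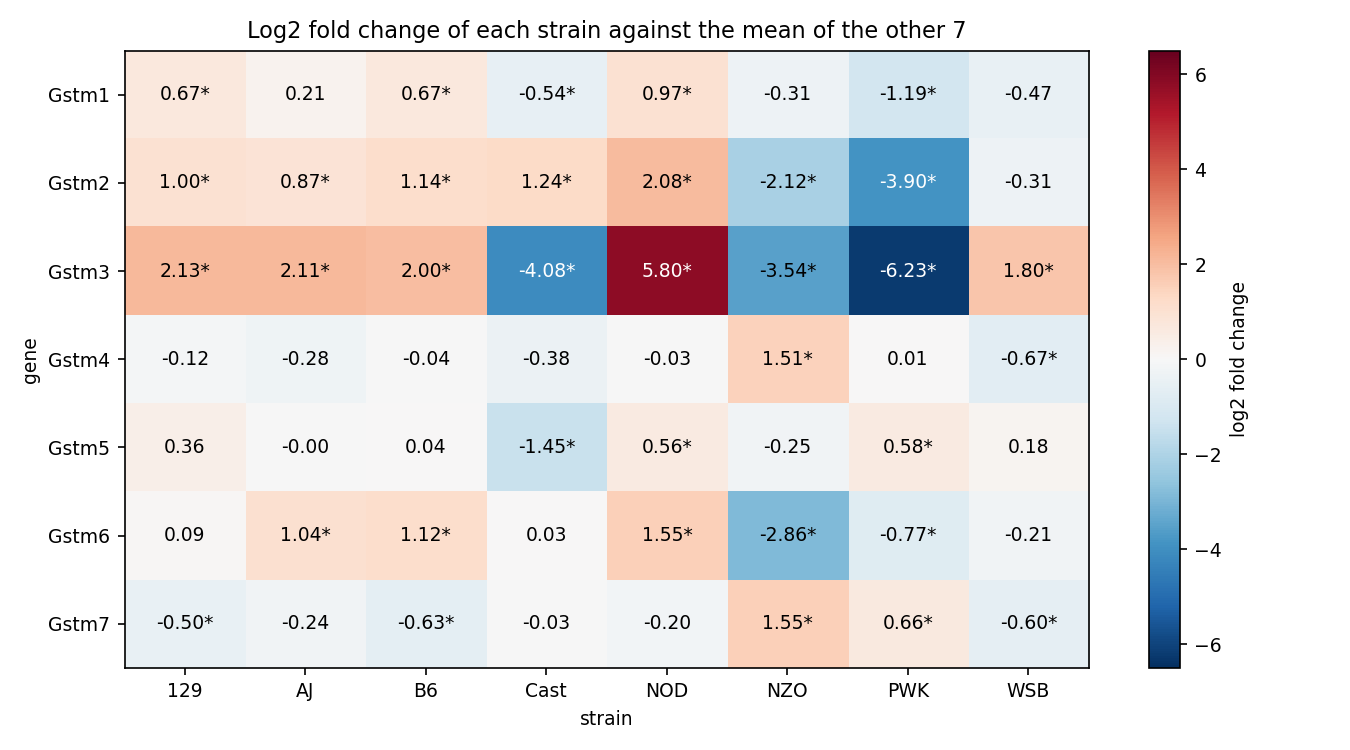
Log2 fold change of each of the 7 genes (rows) in each strain (columns) against the log-scale mean of the other 7 strains, with an asterisk where the adjusted p was below 0.05. Gstm3 spans the widest range, from -6.23 in PWK to 5.80 in NOD, and NZO pairs higher Gstm4 and Gstm7 with lower Gstm2, Gstm3 and Gstm6.

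Gstm3, an inducible mu-class enzyme, split the strains into a group with low and a group with higher estimated levels. Its level had lowest, median and highest values of 0.0999, 0.388 and 1.22 CPM in Cast and of 0.0948, 0.835 and 1.19 CPM in NZO. In PWK, 4 of 8 libraries had 0 reads, which allows up to 0.0971 to 0.118 CPM at 3 reads per library, another 3 had 1 to 3 reads, and PWK 9 had 30 reads or 1.02 CPM. The 23 libraries of these 3 strains all stayed at or below 1.22 CPM, and the 37 libraries of the other 5 strains were all at or above 2.53 CPM.

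Among those 5 strains, strain-129 ran from 15.9 to 35.9 CPM around a median of 22.0, AJ from 13.2 to 46.0 around 20.8, and B6 from 14.2 to 43.95 around 20.97. The ranges of these 3 strains overlapped. WSB spread more widely, from 2.53 to 51.6 CPM around 19.4. WSB 4, WSB 1 and WSB 3, at 2.53, 2.56 and 5.14 CPM, lay nearest to the low strains. NOD 3 to NOD 8 held 52.3, 33.6, 59.7, 58.7, 46.7 and 54.6 CPM, while NOD 1 held 805 and NOD 2 held 697 CPM. The lower of those 2 libraries was thus 11.67 times the next highest NOD library.

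Against the other 7 strains, Gstm3 was higher in NOD by 5.80 ± 0.33 (SE) on the log2 scale (adjusted p = 1.95e-21), in 8 of 8 libraries. Without NOD 1 and NOD 2, the log2 difference was 3.65 (adjusted p = 2.61e-15), and with limma on the deposited log2 values of all libraries it was 3.78 (adjusted p = 1.32e-13), so the size moved with both choices and the call did not. It was also higher in strain-129 (2.13 ± 0.38), AJ (2.11 ± 0.41), B6 (2.00 ± 0.40) and WSB (1.80 ± 0.38), with adjusted p between 1.23e-05 and 0.000125. The log-scale mean behind these values includes the near-zero levels of Cast, NZO and PWK, so their size depends on those strains. In plain CPM, these strains averaged 19.93 (WSB) to 24.32 (strain-129), below the mean of the other 7 strain means (42.01 to 42.63). No pair among strain-129, AJ, B6 and WSB was called for Gstm3. The WSB call was lost with limma on the deposited log2 values (0.65, adjusted p = 0.111). Gstm3 was lower in PWK (-6.23 ± 0.76, adjusted p = 6.78e-10), Cast (-4.08 ± 0.67, adjusted p = 7.26e-07) and NZO (-3.54 ± 0.60, adjusted p = 2.17e-06). With so few reads in PWK the fitted value is not a measured ratio: without PWK 9 it became -8.48, and with limma -3.51. In the order of the means, the step from WSB to NZO passed the test (adjusted p = 6.49e-08), and neighbours within the low group did not (adjusted p of 0.61 for NZO and Cast and 0.0974 for Cast and PWK).

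Gstm2, whose counts were whole in every library, followed part of the same division. Its levels ran from 3.32 to 8.85 CPM in NZO around a median of 7.78, and from 0.865 to 4.61 CPM in PWK around 2.06. All 16 NZO and PWK libraries lay at or below 8.85 CPM and all 44 libraries of the other 6 strains at or above 11.6 CPM. WSB was next, from 11.6 to 32.7 CPM around 21.04. AJ (median 41.1), strain-129 (43.5) and B6 (47.8) had overlapping ranges, and NOD was highest, with a median of 68.9 and a range from 53.6 to 138 CPM.

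Cast parted from the pattern of Gstm3: its Gstm2 level ran from 15.3 to 114 CPM around 35.5, a mean of 51.1 ± 37.6 CPM (SD, n = 7). On the log2 scale Gstm2 was higher in NOD (2.08 ± 0.18, adjusted p = 4.39e-14) and Cast (1.24 ± 0.20, adjusted p = 6.64e-07), and lower in PWK (-3.90 ± 0.30, adjusted p = 6.44e-17) and NZO (-2.12 ± 0.26, adjusted p = 8.14e-10). B6 (1.14), strain-129 (1.00) and AJ (0.87) were also called higher. The WSB difference of -0.31 did not pass (adjusted p = 0.255). NZO and PWK differed from each other as well (adjusted p = 2.4e-05).

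Gstm6 was highest in NOD, from 45.6 to 77.7 CPM around a median of 66.4, and lowest in NZO, from 0.885 to 6.33 CPM around 4.78. No NZO library reached the lowest PWK library, and PWK ran from 12.0 to 21.9 CPM around 15.5. B6 (median 52.3) and AJ (44.6) lay near NOD, and strain-129 (25.4), Cast (21.6) and WSB (20.5) lay between. Cast had the widest relative spread, from 2.60 CPM in Cast 1 to 63.4 in Cast 8. The log2 difference from the other strains was -2.86 ± 0.37 in NZO (adjusted p = 5.89e-09), 1.55 ± 0.26 in NOD (3.08e-06), 1.12 ± 0.28 in B6 (0.00133) and 1.04 ± 0.30 in AJ (0.00733). The lower value in PWK, -0.77 ± 0.31 (adjusted p = 0.0404), sat at the threshold: it was lost without PWK 1, 2, 3, 5, 6 or 7 (adjusted p from 0.0581 to 0.0802) and in 4 other settings.

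Gstm1, the most abundant mu-class transferase of mouse liver, varied less. Its lowest, median and highest levels were 647, 739 and 828.9 CPM in strain-129, 560, 703 and 1154 CPM in B6, and 582, 761 and 1433 CPM in NOD. AJ ran from 439 to 647 CPM around 565, NZO from 57.3 to 561 around 465, WSB from 205 to 534 around 397, and Cast from 145 to 712 around 371. PWK was lowest, from 151 to 324 CPM around 242. Strain ranges overlapped between neighbours throughout, and no step between neighbours in the order of the means passed the test (adjusted p from 0.0789 to 0.998).

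On the log2 scale, Gstm1 was higher in NOD (0.97 ± 0.18, adjusted p = 3.84e-05), strain-129 (0.67 ± 0.19, adjusted p = 0.00612) and B6 (0.67 ± 0.20, adjusted p = 0.00702), and lower in PWK (-1.19 ± 0.22, adjusted p = 1.06e-05) and Cast (-0.54 ± 0.22, adjusted p = 0.0317). Without NOD 1 and NOD 2 the NOD value was 0.67 (adjusted p = 0.0129). The B6 call was lost without B6 6 (0.52, adjusted p = 0.0574), the library with the highest B6 level, 1154 CPM. The Cast call was lost without Cast 1 (adjusted p = 0.122), Cast 5 (0.104) or Cast 6 (0.12), the 3 Cast libraries with the least Gstm1. The WSB value of -0.47 missed the threshold (adjusted p = 0.0589) and passed it without NZO 8 (-0.49, adjusted p = 0.0172) and with DESeq2 (-0.48, adjusted p = 0.0358).

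Gstm4 and Gstm7, the pair with no shared 75-base stretch, ran the other way in NZO. Gstm7 levels there ran from 63.2 to 188 CPM around a median of 173, with NZO 8 lowest. In PWK, Gstm7 ran from 79.7 to 127 CPM around 83.1. Cast was wide, from 18.1 to 91.5 CPM around 65.8. The medians of the other 5 strains lay between 40.3 CPM in B6 and 52.4 in NOD, with no library above 64.0 CPM in NOD, 59.7 in AJ or 58.8 in B6.

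The log2 difference for Gstm7 was 1.55 ± 0.12 in NZO (adjusted p = 2.79e-16) and 0.66 ± 0.13 in PWK (adjusted p = 2.4e-05). It was -0.63 in B6, -0.60 in WSB and -0.50 in strain-129, each called lower (adjusted p from 0.000462 to 0.00573). NZO differed from PWK (adjusted p = 0.00025) and PWK from Cast (adjusted p = 0.00567), and none of the later steps in the order passed.

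Gstm4 was higher in NZO, from 25.5 CPM in NZO 8 to 122 around a median of 108, by 1.51 ± 0.18 on the log2 scale (adjusted p = 2.51e-10). None of the 5 NZO calls in the family was lost without NZO 8, and the part of its liver cell markers in these levels was not tested. Medians in the other 7 strains lay between 25.7 CPM in WSB and 35.6 in PWK, and the only other call was lower in WSB (-0.67 ± 0.21, adjusted p = 0.00778). The 7 pairs of strains in which Gstm4 differed were the 7 pairs that hold NZO. Although a median of 108 CPM lay far above the other medians, the low value of NZO 8 left no pair of strains with separate ranges for Gstm4.

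Gstm5, the member most distant in sequence and known chiefly from brain and testis, had the lowest level of the 7 genes per kilobase of exon in strain-129, AJ, B6, NOD and WSB. Its level ran from 0.732 to 4.24 CPM in Cast around a median of 2.09, and the other strains had medians between 4.61 in NZO and 7.54 in PWK. Cast was lower by 1.45 ± 0.18 on the log2 scale (log2 fold change of -1.45, adjusted p = 9.14e-10), while PWK (0.58, adjusted p = 0.000602) and NOD (0.56, adjusted p = 0.00179) were higher. Gstm5 overlaps 4933431E20Rik on the opposite strand, and whether counting used the strand is not given in the sources used here. The level of 4933431E20Rik was 4.30 lower in NZO on the log2 scale (log2 fold change of -4.30, adjusted p = 5.05e-18), while Gstm5 in NZO changed by -0.25 (adjusted p = 0.18).

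**Figure D2:**
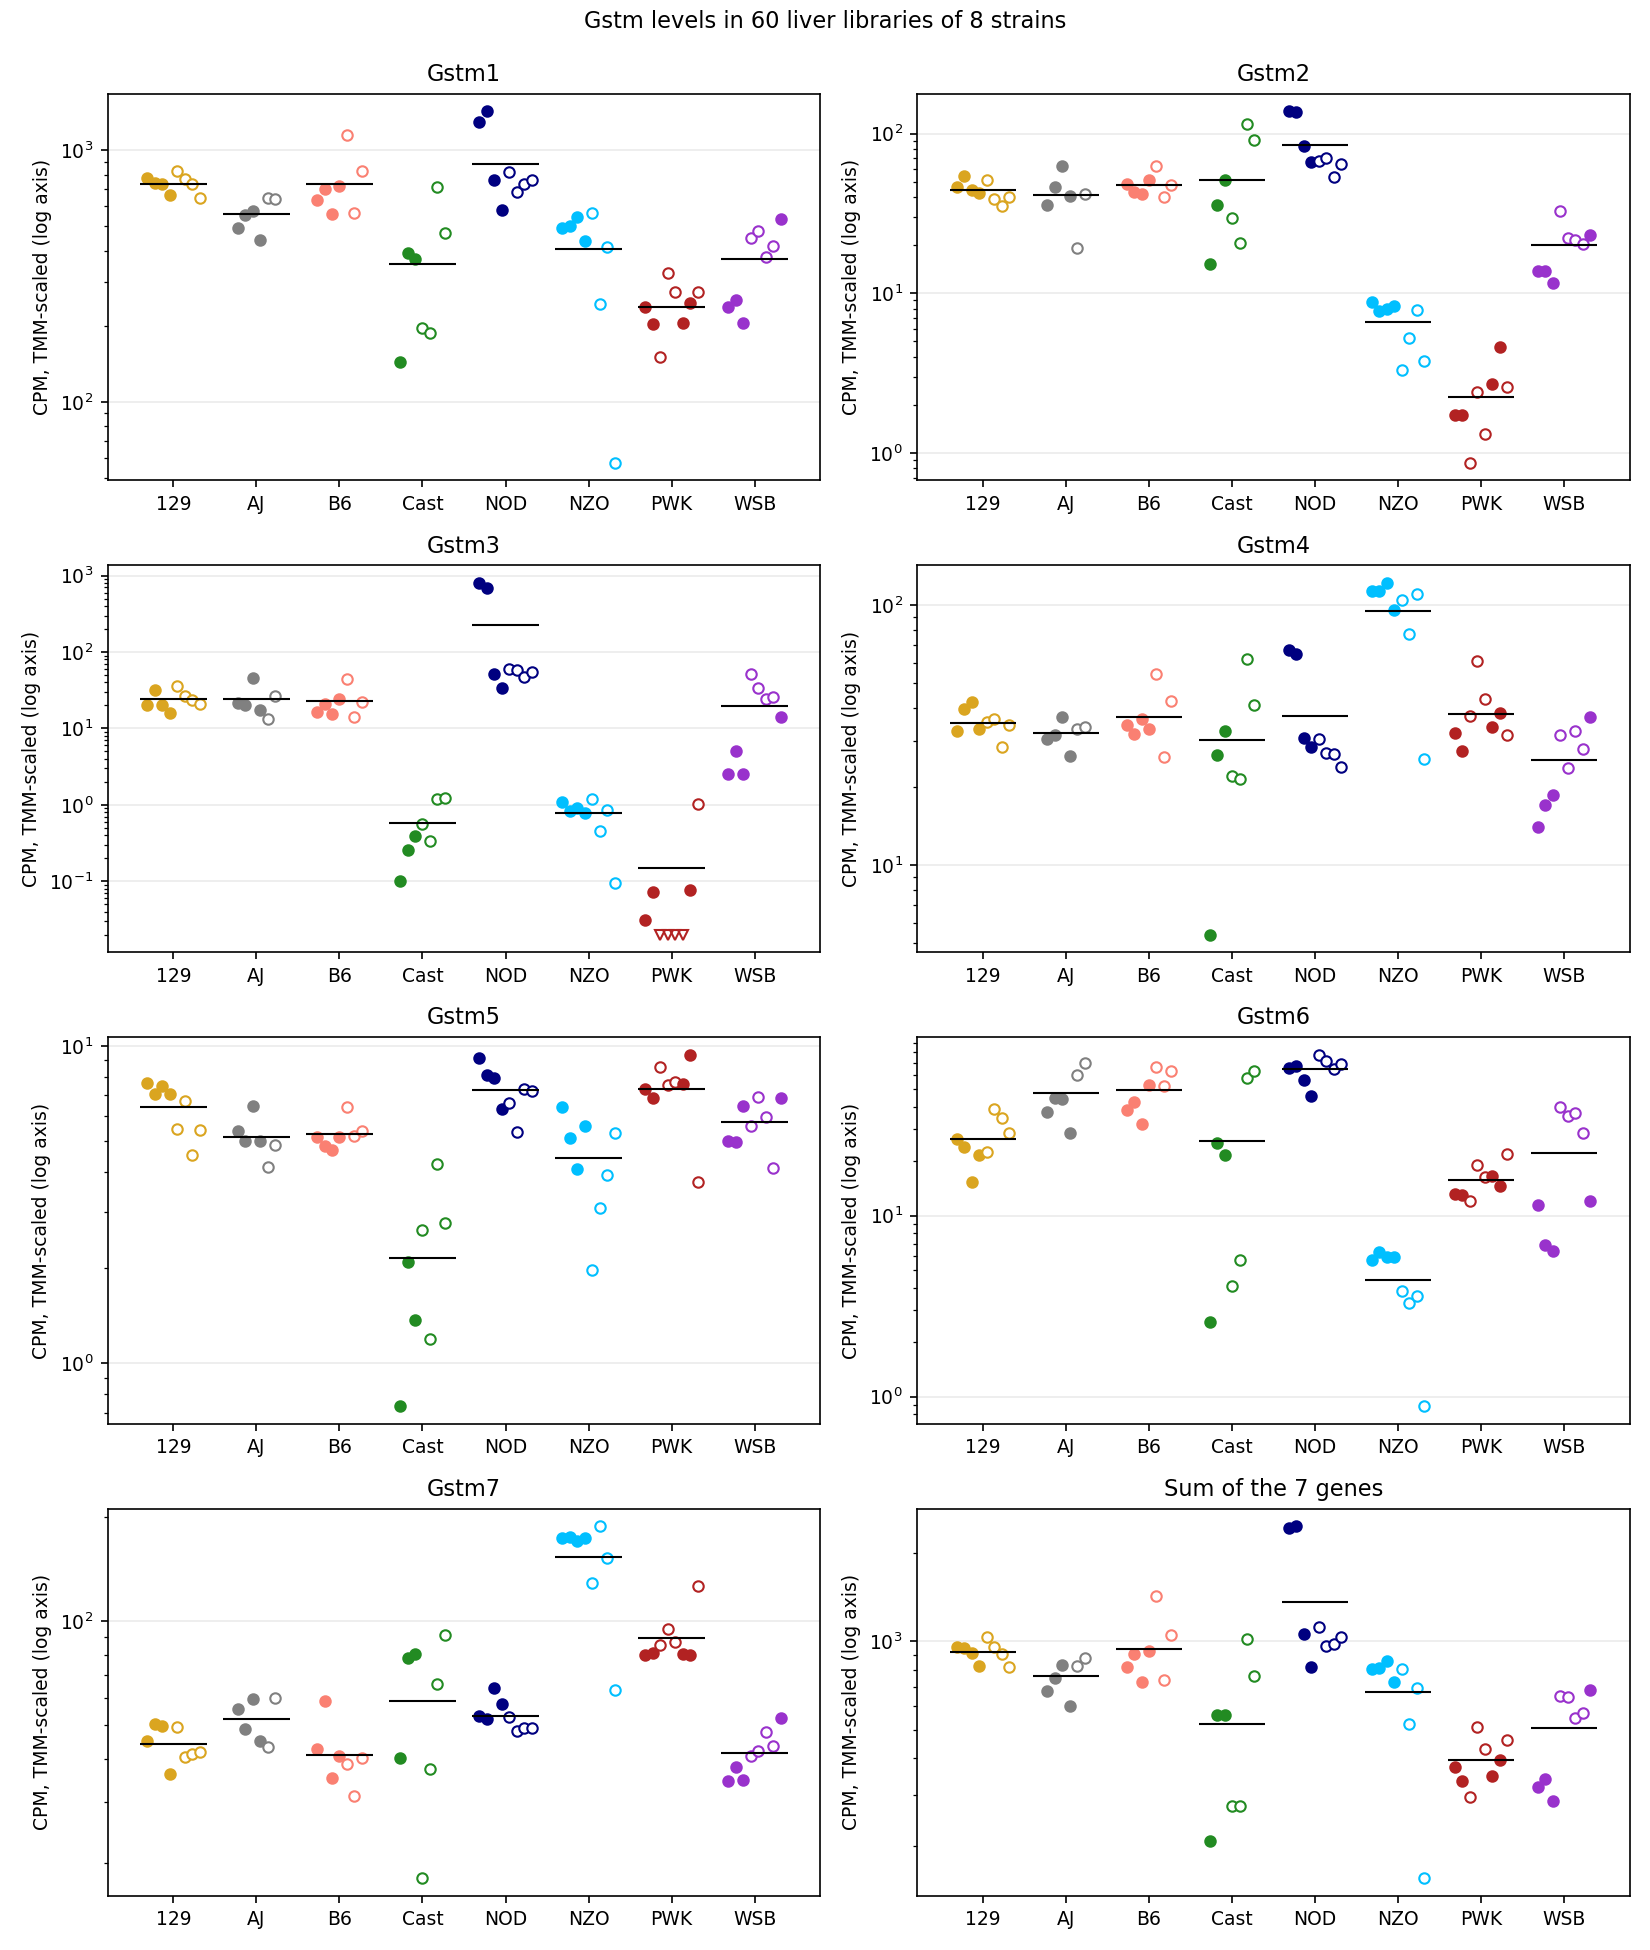
Level of each gene and of their sum (CPM, log axis) in the 60 libraries, by strain, with filled points where Xist was above 100 CPM, open points where it was below, bars at the strain means and triangles at 0 reads. Gstm3 stays at or below 1.22 CPM in Cast, NZO and PWK, and NOD 1 and NOD 2 stand at 805 and 697 CPM.

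Because reads can be divided among these genes, the 7 counts were also summed. The sum was 1357 ± 678 CPM in NOD, 940.4 ± 242 in B6, 919 ± 71.8 in strain-129, 759 ± 105 in AJ, 672 ± 233 in NZO, 523 ± 296 in Cast, 504 ± 163 in WSB and 393 ± 71.0 in PWK. With NOD 1 (2433 CPM) and NOD 2 (2459 CPM) left out, NOD held 994 ± 102 CPM (n = 6), close to B6 and strain-129. The NZO mean includes NZO 8, whose sum of 156 CPM was the lowest of all libraries. In 7 of 28 pairs of strains the ranges of the sum did not overlap. The number was 15 for Gstm2 and for Gstm3, 11 for Gstm6, 10 for Gstm1, 9 for Gstm7, 3 for Gstm5 and 0 for Gstm4. For Gstm1 it includes strain-129 and AJ, parted by 647.28 against 647.26 CPM and not called (adjusted p = 0.407). The sum thus separated fewer pairs than Gstm1, Gstm2, Gstm3, Gstm6 or Gstm7 did, and more than Gstm4 or Gstm5. The share over all genes was not counted, and no test was made on the sum.

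The make-up of the sum also differed between strains. On average Gstm1 held most of the reads in every strain, from 57.5% ± 10.5 in NZO and 60.6% ± 4.28 in PWK to 78.1% ± 1.39 in B6 and 80.3% ± 1.11 in strain-129. Its share was 47.0% in NZO 6 and 36.7% in NZO 8, where Gstm7 held 40.5%. Gstm7 held 25.2% ± 8.44 in NZO and 23.1% ± 3.64 in PWK, and 4.54% ± 1.18 in B6. Gstm4 held 14.4% ± 1.19 in NZO and 9.74% ± 1.91 in PWK, and 3.86% ± 0.49 in strain-129. Gstm3 held 0.109% in NZO, 0.110% in Cast and 0.0338% in PWK, while its highest share was 33.1%, in a NOD library. Per kilobase of exon, Gstm1 had the highest level of the 7 genes in every strain, from 163 CPM per kb in PWK to 599.8 in NOD. Without NOD 1 and NOD 2 the NOD value was 491, below the 501 of strain-129. Its excess over Gstm7 ranged from 2.88 times in NZO and 2.91 times in PWK to 19.5 times in B6, and these ratios moved little with the longest transcript as the length (2.83, 2.86 and 19.2 times).

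**Figure D3:**
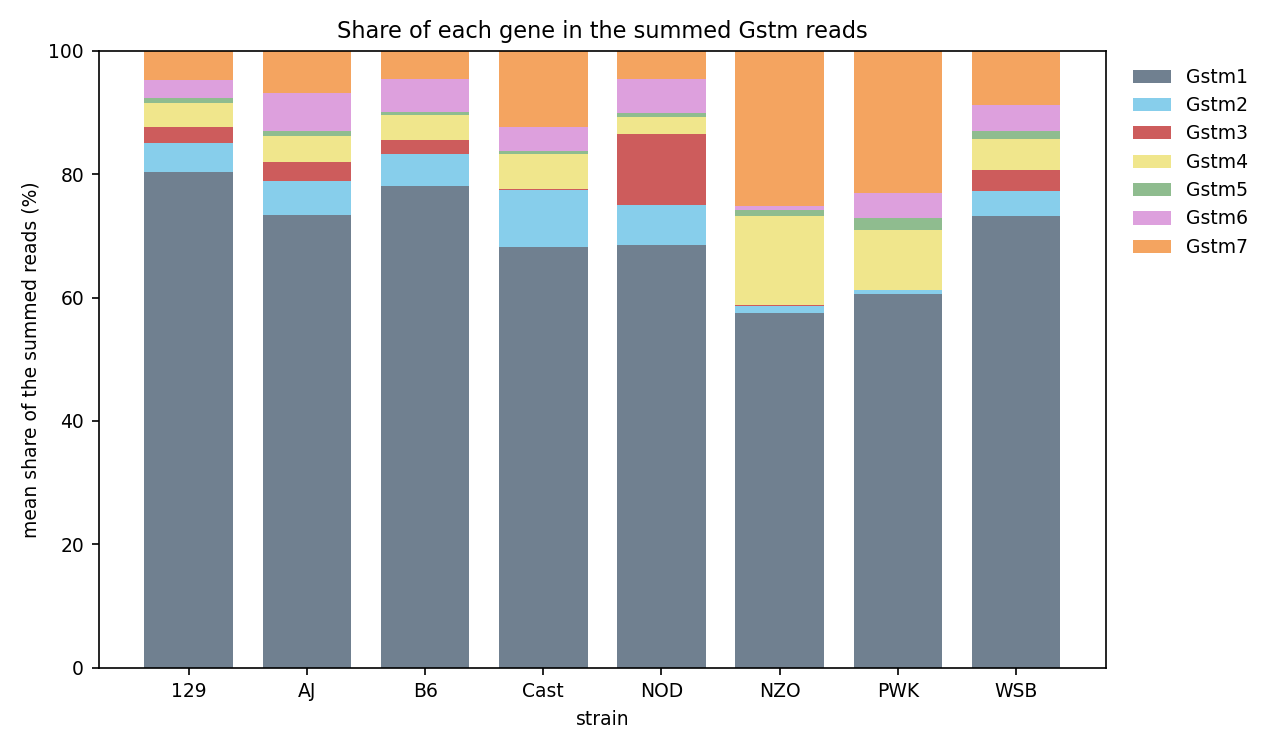
Mean share of each gene in the summed Gstm reads (percent, stacked to 100) in each strain. Gstm1 falls to 57.5% in NZO and 60.6% in PWK, where Gstm7 holds 25.2% and 23.1%.

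Between pairs of strains, 105 of 196 gene-by-pair values passed. The NZO pairs held the highest counts. All 7 genes differed between NZO and strain-129, NOD and PWK in turn, where 33.9%, 32.7% and 50.1% of all genes were called. Between NZO and B6, 6 differed (21.9% of all genes), and 5 each did between NZO and AJ (28.3%), Cast (59%) and WSB (49.8%). PWK differed from AJ, B6 and NOD in 5 genes (38.1%, 43.2% and 40% of all genes), from strain-129 and WSB in 4 (38.8% and 45.7%) and from Cast in 3 (49.9%). Cast differed from B6 and NOD in 5 (57.1% and 53.2%), from WSB in 4 (47%), from strain-129 in 3 (51.5%) and from AJ in 2 (50.8%). For NOD the count was 4 against WSB (35.6%), 3 against strain-129 (16%) and 2 each against AJ and B6 (16.2% and 24.3%). For WSB it was 3 against B6 (44.2%) and 2 each against strain-129 and AJ (32.2% and 35.9%). Between strain-129 and AJ, strain-129 and B6, or AJ and B6, 0 of 7 differed, where 14.4%, 22.5% and 18.4% of all genes were called. With only 7 genes, a count of 0 lies near these shares. At an unadjusted p under 0.05, Gstm6 was the 1 gene of 7 in the pairs of strain-129 with AJ and with B6, and there was none in the pair of AJ and B6. DESeq2 and limma also called 0 in these pairs. The share of counts on the 18S ribosomal RNA row ran from 6.05% to 16.04% in NZO libraries and reached at most 9.48% in the other strains, and its part in these counts was not tested beyond the next values. With the 18S row left out, 35 of 56 strain values and 108 of 196 pair values were called, and without NZO 3, NZO 4, NZO 6 and NZO 7, the 4 libraries with the highest 18S shares, 34 and 99 were. None of the NZO strain calls was lost without them. Gstm2 passed in 22 of 28 pairs, Gstm3 in 20, Gstm6 in 16, Gstm1 and Gstm7 in 15 each, Gstm5 in 10 and Gstm4 in 7. The share of all genes called ran from 14.4% to 59% over the 28 pairs. The number of pairs for a typical gene was not counted, so these numbers do not set a gene apart.

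Spread within a strain had its own structure. Xist, the RNA that coats the inactive X, lay between 646 and 1421 CPM in 31 libraries and at or below 8.90 CPM in the other 29, and every strain held both kinds. With log2 Xist in the model, Gstm6 was the only member with a called Xist term, -0.05 per log2 unit (adjusted p = 0.0488), where 34.9% of all genes had one. High and low Xist lay several log2 units apart, so the fitted difference between such libraries is several times a per-unit value. In WSB, Gstm6 ran from 6.36 to 12.1 CPM in the 4 libraries with high Xist and from 28.8 to 39.98 in the 4 with low Xist. In AJ it ran from 28.5 to 44.9 CPM with high Xist (4 libraries) and from 59.9 to 69.9 with low Xist (2 libraries). NZO had the opposite order, 5.72 to 6.33 CPM with high Xist and 0.885 to 3.83 with low Xist.

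Gstm3 in WSB divided in the same way, from 2.53 to 14.3 CPM with high Xist and from 24.6 to 51.6 with low Xist, without overlap. In all, 9 of 56 gene-by-strain values had separate ranges by Xist, and the order was not the same in each. The share over all genes was not counted, so this number does not set the family apart. Gstm5 was higher with high Xist in strain-129 and AJ and lower in B6, Gstm1 was lower in AJ, and Gstm7 was lower in PWK. Over all strains the Xist term of Gstm3 was -0.01 per log2 unit (adjusted p = 0.839). With this term in the model the same number of strain values, 35 of 56, was called.

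NOD 1 and NOD 2 were above every other NOD library for Gstm1, Gstm2, Gstm3, Gstm4 and Gstm5, the lower of them by 1.58, 1.65, 11.67, 2.11 and 1.02 times, and within the range of the others for Gstm6 and Gstm7. Both libraries also held more of the PXR target Cyp3a11, 15050 and 14420 CPM against 1935 to 3577 CPM in NOD 3 to NOD 8, and more of the carboxylesterase Ces2a, 922.5 and 1022 CPM against 137 to 219 CPM. Cyp2b10, a CAR target chosen after its values were seen, stood at 108 and 69.1 CPM there and at 0.323 to 8.51 CPM in the other 6. The same held for Cyp2c55, at 80.1 and 60.01 CPM against 0.589 to 1.51 CPM. The NRF2 target Nqo1 stood at 10.9 and 9.13 CPM against 0.968 to 5.45 CPM. Both were also chosen after their values were seen, and the remaining genes of their lists are not shown for these libraries. NOD 1 to NOD 4 were the NOD libraries with high Xist. Nqo1 was at 5.45 and 4.50 CPM in NOD 3 and NOD 4, and at 0.968 to 2.29 CPM in NOD 5 to NOD 8. NOD 1 had summed skeletal muscle markers of 2090 CPM, but NOD 2 had 5.90 CPM, within the range of the other NOD libraries (0.0826 to 104.5). Cela1, the 1 pancreas marker tested, was at 1.87 and 1.98 CPM in these libraries and at 17.6 to 25.6 CPM in the other 6. What sets these libraries apart was not tested, and the labels give all 8 the same strain and diet.

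Most pairs of the 7 genes varied together among libraries of a strain. After centring on the strain means, Pearson's r of log2 CPM over 60 libraries was 0.85 for Gstm1 and Gstm4, 0.77 for Gstm1 and Gstm6, and between 0.05 and 0.69 for the other pairs, given as a description since libraries share depth and tissue composition. Across the 8 strain means the same pairs behaved otherwise: r was -0.06 for Gstm1 and Gstm4, 0.83 for Gstm4 and Gstm7, 0.91 for Gstm1 and Gstm3, and -0.76 for Gstm6 and Gstm7. Gstm1 and Gstm4 thus varied together among libraries of a strain, and their strain means did not.

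The pattern of Gstm3 was compared with those of 9426 other genes above 5 CPM. The chromosome 3 neighbour 4933431E20Rik, at a mean of 3.11 CPM, was not among them. Of the genes compared, the pattern most like Gstm3 over the 60 libraries was that of Akr1c12, an aldo-keto reductase on chromosome 13 (r = 0.918). Its mean was 2.27 ± 0.49 CPM in NZO, 1.91 ± 0.75 in Cast and 1.31 ± 0.32 in PWK, against 32.9 ± 5.82 in WSB and between 39.9 and 44.5 in the other 4 strains. Akr1c12 was at 41.2 and 42.97 CPM in NOD 1 and NOD 2, within the range of NOD 3 to NOD 8 (38.3 to 47.5), so it shared the strain pattern of Gstm3 and not the high level of those libraries. Ces2a came next (r = 0.858), then Naglu, a lysosomal enzyme (r = 0.831). Ces2a was also among the 3 genes most like Gstm2 (r = 0.823), with Atp9b (r = 0.831) and Wfdc21 (r = 0.796).

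**Figure D4:**
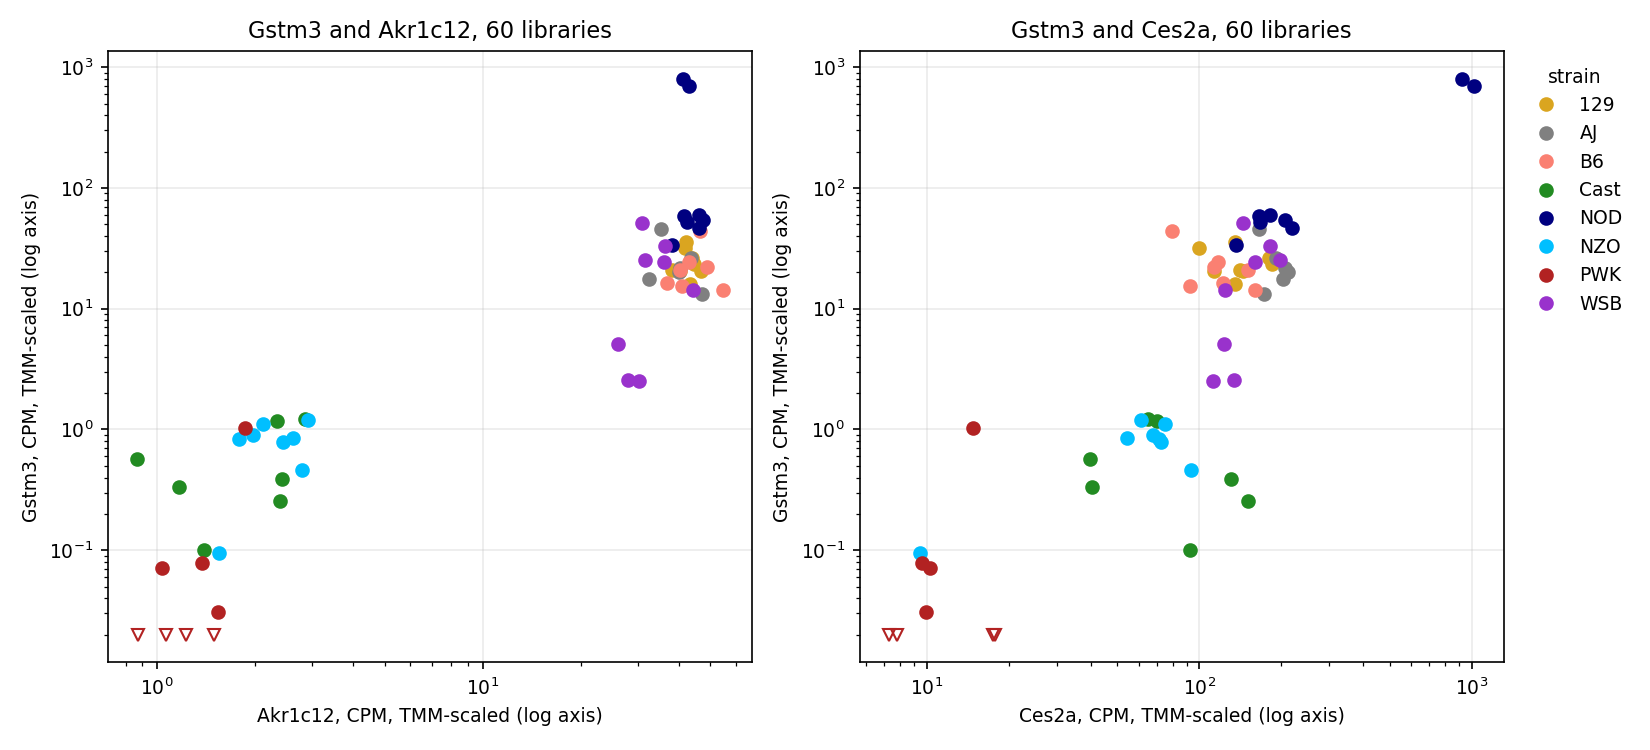
Gstm3 level against Akr1c12 (left) and Ces2a (right), both axes in CPM on log scales, one point per library coloured by strain, with triangles for 0 reads of Gstm3. Libraries of Cast, NZO and PWK lie at the lower left for Akr1c12, and NOD 1 and NOD 2 lie at the upper right for Ces2a.

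Gstm4 and Gstm7 shared their nearest gene, Akr1c13, another aldo-keto reductase of the chromosome 13 cluster (r = 0.823 and 0.795), whose mean was 95.5 ± 25.5 CPM in NZO and 38.2 ± 5.99 in WSB. Gstm4 was next most like Slc25a10 (r = 0.753), a mitochondrial dicarboxylate carrier, and Tkt (r = 0.723), a transketolase. For Gstm7 the next were A4gnt and Ctc1 (r = 0.751 and 0.746). The nearest genes were Fam149a, BC026585 and Rnf5 for Gstm1 (r from 0.743 to 0.772), Acp5, Rps13 and Rpl29 for Gstm5 (0.783 to 0.806) and Bnip1, Ssbp3 and Rbfa for Gstm6 (0.735 to 0.771). For the sum they were Fam149a, Cryz and BC026585 (0.744 to 0.784).

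Other glutathione transferases were tested beside the mu class. Of 18 tested, 16 differed among strains (89.8% of all genes did), and the 3 with the widest ranges of mean log2 CPM among those above 5 CPM are named here. Gstt1, a theta-class enzyme, was lowest in Cast at 8.43 ± 5.30 CPM against 215 ± 8.43 in AJ (Cast log2 fold change of -4.12, adjusted p = 1.76e-19). Gsta2, an alpha-class enzyme, was highest in Cast (61.2 ± 36.9 CPM, log2 fold change 2.20). Gsta4, which acts on 4-hydroxynonenal, was lowest there (16.7 ± 10.5 CPM, -1.37). In NOD, 7 of the 18 were called higher and 1 lower (16.7% and 11.6% of all genes), and in NZO 4 higher and 2 lower (26.7% and 19.5%), the higher count lying near the share of all genes.

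All 20 tested genes of glutathione synthesis, recycling and breakdown differed among strains (89.8% of all genes did). Gclm, the modifier subunit of the enzyme that starts glutathione synthesis, was lowest in Cast (79.1 ± 7.12 CPM) and highest in NOD (200.4 ± 33.8). Gpx3, a secreted peroxidase, and Ggct, which breaks down gamma-glutamyl peptides, were highest in Cast (11.4 ± 6.52 and 17.9 ± 9.89 CPM). In NZO, 7 of these genes were called higher and 3 lower, near the shares of all genes (26.7% and 19.5%).

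Of 28 NRF2 regulators and other targets, 26 differed among strains, near the share of all genes (89.8%). In NZO 16 were called higher and 1 lower (26.7% and 19.5% of all genes), with a median log2 fold change of 0.48 beside 0.02 for all genes, and in PWK 5 were higher and 11 lower (22.5% and 22.7% of all genes, median -0.09). NZO was also the strain with the highest Gstm4 and Gstm7 and with lower Gstm2, Gstm3 and Gstm6. Ces1g, a carboxylesterase, ran from 13.6 ± 14.2 CPM in PWK to 251 ± 68.8 in NZO, Abcc3, an exporter of conjugates, from 26.3 ± 18.8 in Cast to 316 ± 72.6 in B6, and Me1, malic enzyme, from 80.5 ± 33.5 in Cast to 545 ± 294 in NZO.

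Of 23 genes of the CAR, PXR and AHR receptors and their P450 targets, 22 differed among strains (89.8% of all genes did). In NOD 7 were called higher and 2 lower (16.7% and 11.6% of all genes), and in NZO 6 higher and 8 lower (26.7% and 19.5%). The count of higher genes in NZO lay near the share of all genes. In NOD, Cyp3a11, Cyp2b10 and Cyp2c55 stood far higher in NOD 1 and NOD 2 than in the other libraries. No count for this list is given without them. Cyp3a11 was highest in NOD (5904 ± 5472 CPM) and lowest in WSB (227 ± 243). Cyp2b9 ran from 0.789 ± 0.91 CPM in strain-129 to 489 ± 140 in AJ, and Cyp2b13 from 0.0255 ± 0.04 in Cast to 133 ± 125 in B6.

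Genes next to the cluster on chromosome 3 were read from the same fit. Within 250 kb of it the table held 15 other genes, of which 14 were tested. Of these, 13 differed among strains (89.8% of all genes did), Atxn7l2 being the exception (adjusted p = 0.279). The widest range was that of 4933431E20Rik, with a mean of 3.11 CPM over all libraries. Its strain means were 0.105 CPM in NZO, 0.254 in Cast and 0.523 in PWK, and lay between 4.02 (B6) and 6.36 (NOD) in the other strains. This is the same division of strains as that of Gstm3, and its cause was not tested. Among neighbours above 5 CPM, Sort1 and Amigo1 had the widest ranges. Sort1, a sorting receptor for lipoproteins, ran from 3.51 ± 0.66 CPM in WSB to 27.4 ± 2.60 in AJ. Amigo1 ran from 3.65 ± 0.87 in NZO to 10.5 ± 1.26 in AJ. Csf1, the macrophage growth factor, was lowest in Cast (log2 fold change of -0.72), and Ampd2, AMP deaminase, was highest in NZO (0.41). Ahcyl1 (0.34 in WSB), Gnai3 (0.26 in Cast), Psma5 (-0.24 in PWK) and Cyb561d1 (-0.35 in WSB) differed by less. Genes with a mean near or below 1 CPM were Gm12500 (-0.74 in WSB), Gnat2 (1.70 in Cast), Gpr61 (2.45 in PWK) and Sypl2 (2.38 in NOD), the last a gene of skeletal muscle whose NOD value rests on NOD 1 (7.09 CPM against 0 to 0.29 CPM in the other 7 NOD libraries). In NZO, 3 of the 14 neighbours were called higher and 3 lower, near the shares of all genes (26.7% and 19.5%).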

How the data were processed

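Liver RNA was sequenced from polyadenylated RNA, per the labels' protocols. The authors deposited estimated counts per gene and, in a second table, values on a log2 scale after variance stabilisation. The submitters' processing notes name GRCm38 and DESeq2. The aligner, counter, annotation and strand setting: not given in the sources used here. The labels list 61 samples: 60 have a column, B6 5 is not analysed here, and 1 column without a sample was not used. Of the count values, 20.0% were not whole (tolerance 1e-06), and all were rounded.

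Genes with low counts were filtered with filterByExpr by strain. Counts were scaled by TMM and fitted with edgeR 4.0.16 (R 4.3.3) quasi-likelihood, with strain as the only term. P-values were adjusted by Benjamini-Hochberg over 16165 genes within each contrast, at a threshold of 0.05. Standard errors were derived from each contrast's log2 fold change and F statistic. Log2 CPM used a prior count of 2. The planned count test was applied to rounded estimated counts. Alternatives used DESeq2 1.42.0, limma 3.58.1, other scaling, no filter, an Xist term, a replicate block and libraries left out. The code was tested on simulated data. Named genes were the 7 members, the called neighbours, the 3 widest-ranging genes of each list above 5 CPM, and the 3 genes most like each member. Members and lists were chosen with earlier results of these data known.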

Additional observations from a re-analysis of the deposited data

Results flagged for a closer look

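For each of the 7 genes and their sum, the highest and lowest library of each strain were compared with the rest of that strain. Of 64 groups tested, 7 held a library whose gap to its nearest neighbour was larger than Dixon's 95% critical value, and chance gives about 1 in 20.

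PWK 9 accounted for 3 of these. Its Gstm3 level was 1.02 CPM against 0.0777 in the next PWK library, its Gstm7 level was 126.8 against 95.0 CPM, and its Gstm5 level, the lowest in PWK, was 3.73 against 6.87 CPM. B6 6 was highest of 7 for Gstm3, at 43.95 against 24.3 CPM, and for Gstm5, at 6.43 against 5.39 CPM. B6 2 was highest for Gstm7, at 58.8 against 42.7 CPM. NZO 8 was lowest for Gstm4, at 25.5 against 77.0 CPM. What sets these libraries apart was not tested.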

How the results depend on the processing

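Across the alternatives run, 1347 of 1349 recomputed counts of called members stayed within 1.5 times their value, and no called strain difference changed direction. The exceptions were the count of members higher in WSB, 0 in place of 1 with limma on the deposited log2 values, and the count lower in NOD, 1 in place of 0 with NOD 1, NOD 2, NZO 8, Cast 1 and PWK 9 left out (Gstm4, log2 fold change -0.50, adjusted p = 0.0128), a set chosen after seeing the data. With NOD 1 and NOD 2 alone left out, also chosen after seeing the data, that Gstm4 value was -0.46 (adjusted p = 0.128). Of 2485 recomputed strain differences that were called, 16 lost the call, in Gstm6 in PWK (10), Gstm1 in Cast (4), Gstm1 in B6 (1) and Gstm3 in WSB (1), and the cause was not tested. All 528 recomputed summed levels stayed within 1 SD. Most of them left out 1 library, which can hardly move a strain mean by 1 SD. For these the outcome was set in advance. The recomputed counts of called members were mostly of this kind too. The count lower in Cast, 3 with all libraries, ran from 2 to 4 and stayed within the 1.5 times. The number of strain values called lay between 34 and 37 of 56 with each library left out in turn. With the replicate block it was 34, Gstm6 in PWK (-0.67, adjusted p = 0.0811) being the call lost. The numbers were not taken as pairing: same-numbered libraries had a median correlation of 0.201 over 181 pairs (131 of them over 0.1) against -0.07 for other numbers, but not every pair was over 0.1 (-0.429 to 0.525), and 7 of 60 libraries correlated best with their own number. In strain-129, AJ, B6, NOD and NZO, libraries numbered 1 to 4 had high Xist and those with higher numbers had low Xist. Number and Xist therefore cannot be told apart in these correlations or in the replicate block. Depth limits Gstm3 in PWK, where 7 of 8 libraries had at most 3 reads.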
